A study of Mus musculus with 6 samples.

Results

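The 10 genes described here belong to the vascular Notch and ephrin systems, and they were measured by RNA sequencing of mouse embryonic brain. They were taken by symbol from the deposited count table, which holds 52459 gene symbols, and all 10 members were found: the Notch ligands Dll1, Dll4 and Jag1, the receptors Notch1 and Notch4, the target genes Hey1, Hey2 and Heyl, the ligand Efnb2 and its receptor Ephb4. The study compared 3 whole brains from Mfsd7c-/- knock out embryos (KO) with 3 from wild type embryos (WT), all of strain C57BL/6 at stage E14.5. The sources used here do not give how the allele was made, in which cells it acts or which embryos were littermates, and p-values therefore reflect only the spread among these 6 libraries, which may be technical. The comparison asks which transcripts differ in the brain when Mfsd7c, a membrane transporter gene now called Flvcr2, is disrupted.

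Notch receptors are cut when a Delta or Jagged ligand on a neighbouring cell pulls on them, and the freed intracellular part joins the DNA-binding protein Rbpj in the nucleus to switch on target genes of the Hes and Hey families. In growing vessels, the leading tip cells present Dll4 and keep their neighbours in a stalk state through Notch, and the same pathway promotes arterial identity. Ephrin-B2, the product of Efnb2, marks arteries, and its receptor EphB4 marks veins. Several of these genes are also used outside vessels: Notch1, Dll1, Jag1, Hey1 and Efnb2 act in neural progenitors of the embryonic brain. Bulk RNA cannot assign the reads of a gene to a cell type, and fewer cells of a type and less RNA per cell cannot be told apart.

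None of the 10 members passed the test between KO and WT brains, in either direction. Dll4 had the largest difference, at 1.44 times the WT level, and Hey1 was next at 1.15 times, and for these 2 genes each KO brain lay above each WT brain. The other 8 members overlapped between the groups, with fold changes from 0.906 for Heyl to 1.13 for Efnb2. In the same libraries 6 of 12 endothelial tip cell genes rose and 0 fell, and 7 of 21 pan-endothelial genes rose and 2 fell. Leaving out single libraries gave 4 to 8 pan-endothelial genes called higher. The test was edgeR's quasi-likelihood test across all 19565 genes that passed the filter on low counts, with Benjamini-Hochberg adjustment at a threshold of 0.05. It called 0.659% of all genes, 0.624% as higher and 0.0358% as lower in KO. All 10 members passed the filter. Before adjustment, 2 of 10 members, Dll4 and Hey1, had a p under 0.05, against 8.09% of all genes tested, and DESeq2 and limma-voom also called 0 of 10. Groups that do not overlap were found for 2 of 10 members and for 14.4% of all genes (7.84% with KO above WT and 6.58% with KO below). The median log2 fold change of the members was 0.02, and that of all genes was -0.01.

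The promoters of 2 genes are shown as examples: Dll4 as the member with the largest difference, and Hey2 as the only searched member with an Rbpj match. Both are the 250 bases before the transcription start in RefSeq on GRCm38.p6, written 5′ to 3′ on the strand of the gene. Dll4 lies on the plus strand (chr2:119325534-119325783) and Hey2 on the minus strand (chr10:30842784-30843033). Capitals mark a match to the Rbpj core TGGGAA on either strand or to the hypoxia response core ACGTG on either strand.
Dll4: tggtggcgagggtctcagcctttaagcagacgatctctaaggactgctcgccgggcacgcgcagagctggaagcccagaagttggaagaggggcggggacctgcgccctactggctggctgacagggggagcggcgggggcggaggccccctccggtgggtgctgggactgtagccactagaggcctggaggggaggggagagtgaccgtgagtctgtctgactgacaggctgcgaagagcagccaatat
Hey2: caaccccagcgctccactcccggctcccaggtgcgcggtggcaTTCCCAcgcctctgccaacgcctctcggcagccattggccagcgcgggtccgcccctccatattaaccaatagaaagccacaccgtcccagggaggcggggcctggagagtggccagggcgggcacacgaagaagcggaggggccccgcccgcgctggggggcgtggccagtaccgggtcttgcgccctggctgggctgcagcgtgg
The Hey2 window held 1 Rbpj core, read here from the opposite strand as TTCCCA, with its first printed base 207 bases before the start. The Dll4 window held neither of these 2 motifs. The table gave 9 promoters for 8 of the 10 members, and none for Hey1 and Heyl. Of those 9 promoters, 1 held TGGGAA and 0 held ACGTG, against 21.6% and 16.6% of the 32851 promoters of this length. Another 2 motifs were searched on either strand and are not capitalised. CACGTG was in 0 of the 9 promoters and CACGCG in 3 (Dll1, Dll4 and Jag1), against 6.02% and 7.62%. These matches describe letters in a short window and do not show binding.

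The deposited counts summed to between 43784619 and 50549673 per library. Mfsd7c served as the check of the labels, with 119, 129 and 130 counts in KO replicates 1, 2 and 3 and 206, 291 and 259 in WT replicates 1, 2 and 3. Its log2 fold change was -0.96 (SE 0.147, edgeR adjusted p = 0.0271), a call lost without any single library except WT replicate 1 (edgeR adjusted p from 0.109 to 0.189). The deleted part of the gene is not stated, so reads from the rest of it may remain. Markers of caudal and of epidermal tissue differed between libraries. Whether the caudal transcripts came from the brain itself or from other tissue was not tested. Transcripts of 9 caudal Hox genes summed to 93.9 and 32.7 CPM (read counts scaled to a common library size) in WT replicates 2 and 3 and to at most 3.70 CPM in the other 4, and 8 epidermal genes summed to 505 CPM in KO replicate 1 and 429 CPM in WT replicate 1, against 23.7 to 93.6 CPM elsewhere. WT replicate 2 had 1635 CPM of Xist, expressed in females, and the other 5 libraries had at most 0.609 CPM. The 12 radial glia genes summed to 2155 to 2281 CPM and 12 genes of intermediate progenitors and neurons to 6134 to 7025 CPM over all libraries, with the groups overlapping, and both sets were abundant, as in brain. Fits without WT replicates 2 and 3 and without KO replicate 1 and WT replicate 1 were made, and the part of these differences in the results was otherwise not tested.

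Dll4, the Delta ligand of tip cells and arteries (ENSMUSG00000027314.6), spans positions 119325784 to 119335962 of chromosome 2 on GRCm38 (GENCODE M21). It had 442, 476 and 615 counts in KO replicates 1, 2 and 3 and 305, 357 and 426 in WT replicates 1, 2 and 3. Scaled by library size these were 10.2, 9.38 and 12.8 CPM in KO and 6.88, 7.10 and 8.50 CPM in WT. KO replicate 3 was highest, and the lowest KO brain, replicate 2, was above the highest WT brain, replicate 3, by less than the range of either group. The means were 10.8 ± 1.80 CPM (SD, n = 3) in KO and 7.49 ± 0.879 CPM (SD, n = 3) in WT, and the log2 fold change was 0.53 (SE 0.147, 95% interval 0.19 to 0.87, edgeR adjusted p = 0.308). Dll4 ranked 402 of 19565 genes by p-value. In the authors' deposited table its log2 fold change was 0.53 with a DESeq2 adjusted p of 0.0579. Leaving out single libraries gave log2 fold changes from 0.39 without KO replicate 3 to 0.63 without WT replicate 3, and edgeR adjusted p-values from 0.146 to 0.963.

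An antisense gene, Gm14207, overlaps 5.56% of the exon bases of Dll4. It had 34, 44 and 62 counts in KO and 20, 20 and 25 in WT, and its log2 fold change of 1.13 did not pass (edgeR adjusted p = 0.244). No source used here states the strand setting of the counting, so reads of the 2 genes in the overlap cannot be told apart.

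Dll1, a Delta ligand best known from neural progenitors (ENSMUSG00000014773.13), had the largest standard error of the members. There were 1349, 2032 and 1626 counts in KO and 1206, 2077 and 2382 in WT, or 31.3, 40.1 and 33.9 CPM against 27.2, 41.3 and 47.5 CPM. The KO range lay inside the WT range, which ran from the lowest to the highest of the 6 libraries. The log2 fold change was -0.14 (SE 0.195, 95% interval -0.60 to 0.31, edgeR adjusted p = 0.896). It turned to 0.035 without WT replicate 3 and to 0.37 without WT replicates 2 and 3. The antisense transcript A930024N18Rik overlaps 20.5% of the exon bases of Dll1, the largest share among the members.

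Jag1, the Jagged ligand that competes with Dll4 at vessel sprouts (ENSMUSG00000027276.7), was at the same mean level in both groups. Its values were 33.7, 38.8 and 33.8 CPM in KO and 29.5, 36.8 and 39.6 CPM in WT. The KO brains again lay within the WT range. The log2 fold change was 0.0050 (SE 0.114, 95% interval -0.25 to 0.26, edgeR adjusted p = 0.994), and it was negative without KO replicate 2 (-0.064) or WT replicate 1 (-0.11). Without WT replicates 2 and 3 it was 0.27 (edgeR adjusted p = 0.575).

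Notch1, the receptor shared by progenitors and endothelium (ENSMUSG00000026923.15), had 6012, 8033 and 6814 counts in KO and 4608, 7257 and 7564 in WT. These gave 139, 158 and 142 CPM in KO and 104, 144 and 151 CPM in WT. WT replicate 1 stood below the other 5 libraries, which overlapped. On the log2 scale KO differed from WT by 0.14 (SE 0.132, 95% interval -0.16 to 0.44, edgeR adjusted p = 0.836) and was -0.0088 without WT replicate 1. Without WT replicates 2 and 3, which leaves WT replicate 1 as the WT library, it was 0.50 (edgeR adjusted p = 0.123).

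Notch4, the receptor most restricted to endothelium (ENSMUSG00000015468.14), was at 16.0, 15.5 and 15.9 CPM in KO and 14.1, 17.6 and 17.8 CPM in WT. The 3 KO brains had an SD of 0.255 CPM, and they lay between WT replicate 1 and the other two WT brains. The fitted log2 difference was -0.065 (SE 0.105, 95% interval -0.31 to 0.18, edgeR adjusted p = 0.913). Without WT replicates 2 and 3 it was 0.17.

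The Hey genes encode repressors of the basic helix-loop-helix class that Notch switches on. Hey1 (ENSMUSG00000040289.8) had 1174, 1474 and 1477 counts in KO and 1023, 1290 and 1361 in WT. The CPM values were 27.2, 29.1 and 30.8 in KO and 23.1, 25.7 and 27.2 in WT. KO replicate 1 and WT replicate 3 were almost level, so the groups parted by a margin far smaller than their spread. The fitted log2 difference was 0.20 (SE 0.0843, 95% interval 0.0064 to 0.39, edgeR adjusted p = 0.596), and it was 0.14 to 0.25 when single libraries were left out. Without WT replicates 2 and 3 it was 0.34 (edgeR adjusted p = 0.477).

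Hey2, which takes part in arterial specification (ENSMUSG00000019789.9), had the lowest mean CPM of the members in KO and in WT. It was at 7.28, 7.29 and 8.14 CPM in KO and 6.54, 7.82 and 8.08 CPM in WT. Its WT mean of 7.48 CPM was almost level with the 7.49 CPM of Dll4, which was lower than Hey2 in WT replicate 2. The KO and WT values of Hey2 overlapped throughout. A log2 fold change of 0.017 was fitted (SE 0.124, 95% interval -0.27 to 0.30, edgeR adjusted p = 0.985), with negative values without KO replicate 3 (-0.038) or WT replicate 1 (-0.069) and 0.22 without WT replicates 2 and 3. Heyl, the third Hey gene, which is also expressed by vascular smooth muscle (ENSMUSG00000032744.4), was at 10.7, 12.5 and 13.3 CPM in KO and 12.02, 13.9 and 14.3 CPM in WT. WT replicates 2 and 3 were highest and KO replicate 1 was lowest. For Heyl the log2 fold change was -0.14 (SE 0.116, 95% interval -0.41 to 0.12, edgeR adjusted p = 0.812), and it was 0.0195 without WT replicates 2 and 3. The 3 Hey genes differed in sign, and none passed.

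Efnb2, the arterial ephrin ligand (ENSMUSG00000001300.16), was the most abundant member, with 9214, 9231 and 7987 counts in KO and 7989, 7908 and 8121 in WT. These were 214, 182 and 167 CPM in KO and 180, 157 and 162 CPM in WT. KO replicates 1 and 2 were above all WT brains, and KO replicate 3 was below WT replicate 1. For Efnb2 the log2 fold change was 0.17 (SE 0.0960, 95% interval -0.048 to 0.39, edgeR adjusted p = 0.709), and it was 0.067 without KO replicate 1, 0.25 without KO replicate 3 and 0.061 without WT replicates 2 and 3. Ephb4, the venous receptor for ephrin-B2 (ENSMUSG00000029710.15), was the steadiest member over all 6 libraries. It was at 31.96, 34.4 and 32.3 CPM in KO and 31.9, 31.3 and 33.4 CPM in WT, and its fitted log2 difference was 0.032 (SE 0.0659, 95% interval -0.12 to 0.18, edgeR adjusted p = 0.940). The interval corresponds to 0.921 to 1.13 times the WT level.

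**Figure D1:**
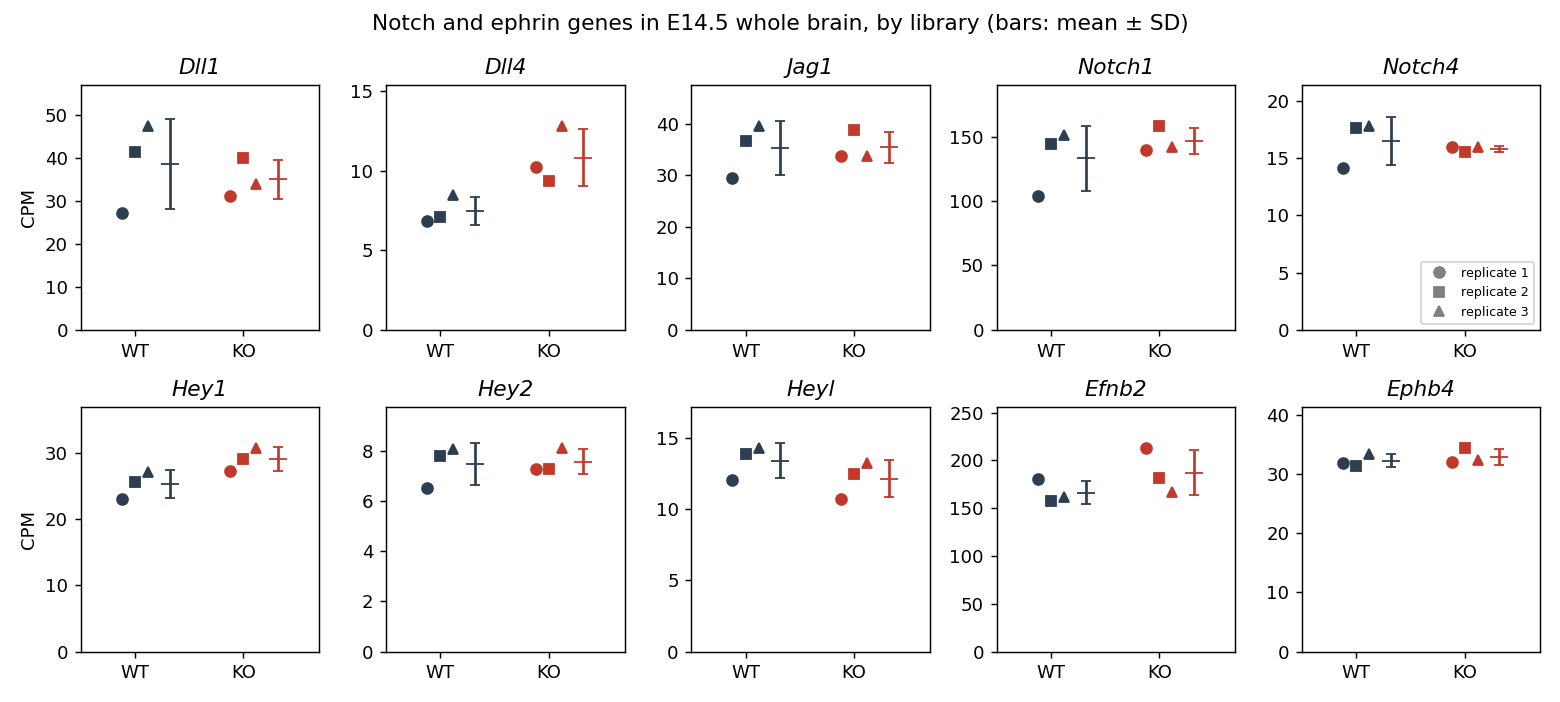
Level of each member in CPM on a linear axis from 0, with 1 point per library, WT in dark blue and KO in red, the marker shape giving the replicate number and the bar the mean ± SD (n = 3). Dll4 and Hey1 are the 2 panels in which the groups do not overlap.

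WT replicate 1 was the lowest library for 7 of 10 members: Dll1, Dll4, Jag1, Notch1, Notch4, Hey1 and Hey2. It was the lowest for 20.7% of all genes tested. WT replicate 3 was the highest for 4 members (19.0% of all genes tested) and KO replicate 3 for 3 (15.1% of all genes tested). Efnb2 and Heyl ran in nearly reversed orders over the libraries: KO replicate 1 was highest for Efnb2 and lowest for Heyl, and WT replicates 2 and 3 were lowest for Efnb2 and highest for Heyl. KO replicate 3 was highest for Dll4, Hey1 and Hey2. The WT brains ran from replicate 3 to 2 to 1 in every member but Efnb2 and Ephb4.

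**Figure D2:**
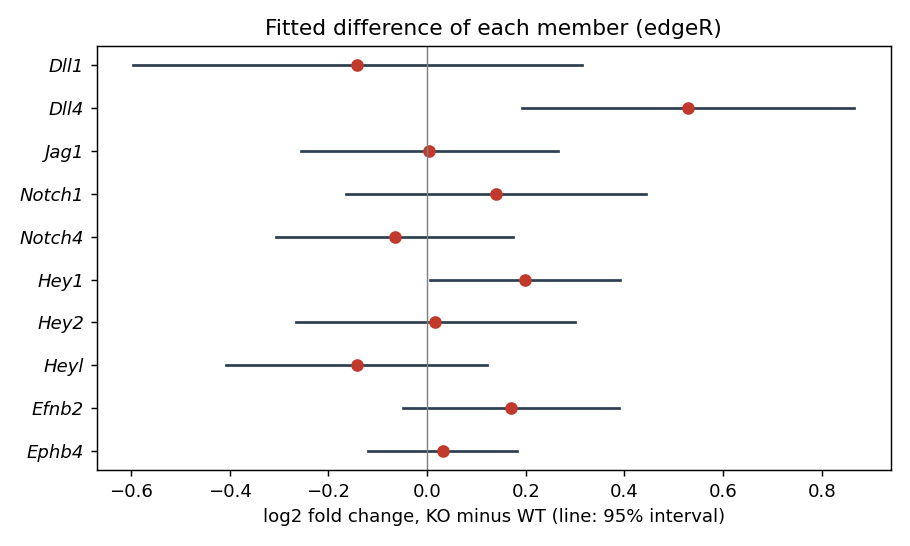
Fitted log2 fold change of each member, KO minus WT, as a red point with its 95% interval as a line. The intervals of Dll4 and Hey1 do not include 0 before adjustment for multiple testing, and those of the other 8 members do.

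Levels were compared between genes per kilobase of merged exons, as CPM per kb in the 3 WT brains. Efnb2 was the highest at 24.3 ± 1.76 (SD, n = 3), followed by Notch1 at 9.35 ± 1.79, Dll1 at 9.17 ± 2.47, Hey1 at 7.75 ± 0.634, Ephb4 at 6.94 ± 0.230 and Jag1 at 6.06 ± 0.893 CPM per kb. A lower tier held Heyl at 2.62 ± 0.239, Notch4 at 2.05 ± 0.260, Dll4 at 1.94 ± 0.228 and Hey2 at 1.63 ± 0.180 CPM per kb. Neighbours from Notch1 down to Jag1 overlapped in the WT brains, as did Notch4 with Dll4. Efnb2, at 22.9 CPM per kb in its lowest library, was above Cdh5, the endothelial cadherin, at 16.9 CPM per kb in its highest. In KO brains Dll4 was at 2.81 ± 0.466 CPM per kb, which placed its mean above those of Heyl and Notch4.

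Ratios of counts between 2 members in the same library do not depend on how libraries are scaled. The Dll4 to Jag1 ratio was 0.304, 0.242 and 0.380 in KO and 0.233, 0.193 and 0.214 in WT, and the groups did not overlap. The Dll4 to Notch4 ratio was 0.642, 0.605 and 0.805 in KO and 0.487, 0.402 and 0.477 in WT, again without overlap. Dll4 ratios lay above WT in this way against 6 of the 9 other members, and against 62% of all other genes tested that had no 0 count (0.63% in the other direction), so the members were near the background. The Hey1 to Heyl ratio was 2.55, 2.33 and 2.32 in KO and 1.92, 1.85 and 1.90 in WT, without overlap (SD 0.128 in KO and 0.0348 in WT). Over all other genes, 28.6% gave a Hey1 ratio with KO above WT and 1.5% one with KO below. The ratio of Heyl to other genes was below WT in KO for 9.73% and above for 1.43%. The Efnb2 to Ephb4 ratio, 6.68, 5.28 and 5.16 in KO and 5.65, 5.02 and 4.85 in WT, overlapped (two-sided exact permutation test on log2 ratios, p = 0.5, Benjamini-Hochberg adjusted p = 0.682). The 3 ratios without overlap shown here each had p = 0.1 in the same exact permutation test (Benjamini-Hochberg adjusted p = 0.3). Ratios were computed for 45 pairs. The pairs share members and are not independent, and with 3 brains against 3 this exact test cannot go below p = 0.1. The ratios shown were chosen after their values were seen.

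**Figure D3:**
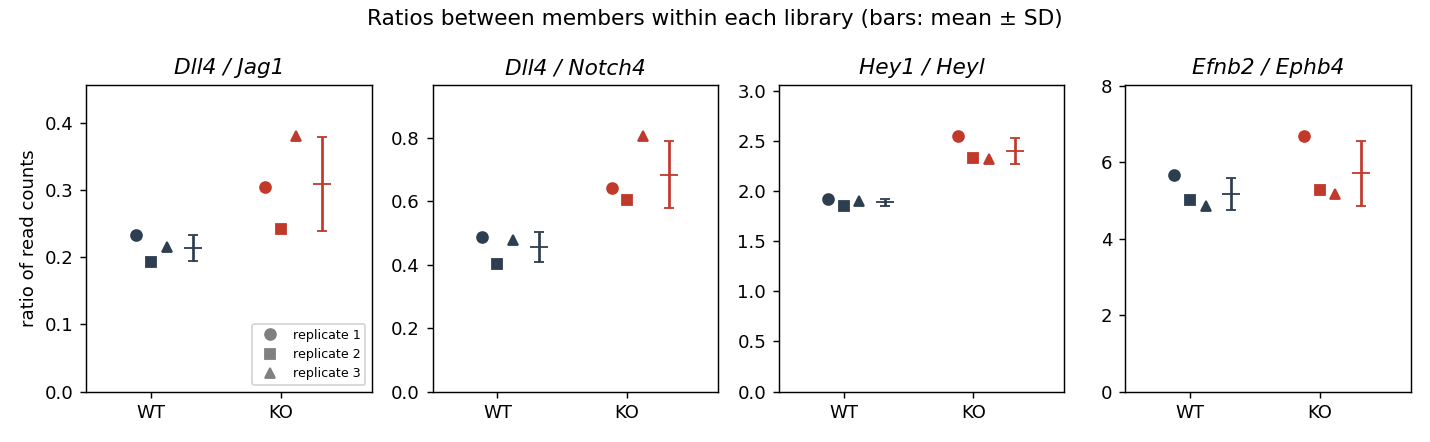
Ratio of read counts between 2 members in each library, on linear axes from 0, with WT in dark blue, KO in red, marker shapes for replicate numbers and bars for the mean ± SD (n = 3). The first 3 ratios part the groups, and Efnb2 to Ephb4 does not.

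The rest of the Notch pathway was followed in 50 genes, all of them tested. None passed in either direction, and DESeq2 and limma-voom called 0. In edgeR 7 of 50 had an unadjusted p under 0.05, against 8.09% of all genes tested. Leaving out WT replicate 1 gave 1 call, the ligase-like gene Dtx3, lower in KO with a log2 value of -0.27 (edgeR adjusted p = 0.0470) against -0.19 with all libraries. The median log2 fold change was -0.01, as for all genes.

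Among the other ligands and receptors, 0 of 6 passed. The lowest p-values were those of the Delta-like genes Dlk2, at a log2 fold change of -0.32 (with SE 0.113, edgeR adjusted p = 0.483), and Dlk1, with 0.11 (SE 0.0736, edgeR adjusted p = 0.761). Of 26 genes for processing, glycosylation and turnover of ligands and receptors, 0 passed, and log2 fold changes ran from -0.19 to 0.20. Mib2, an E3 ligase for Notch ligands, had -0.15 (SE 0.0543, edgeR adjusted p = 0.505). Of 10 genes of the nuclear complex, 0 passed. Spen, a co-repressor that binds Rbpj, had 0.16 (SE 0.0600, edgeR adjusted p = 0.517), and Maml3, a Mastermind co-activator, had 0.13 (SE 0.0658, edgeR adjusted p = 0.659).

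Of 8 other genes known to respond to Notch, 0 passed. Hes3, a neural progenitor repressor, had the lowest fold change at -1.28 (SE 0.357, edgeR adjusted p = 0.311), with means of 0.175 CPM in KO and 0.430 CPM in WT. Epas1, which encodes HIF-2 alpha, had 0.26 (SE 0.102, edgeR adjusted p = 0.554). The canonical targets Hes1 and Hes5, named outside the rule after their values were seen, had 0.22 (SE 0.0978, edgeR adjusted p = 0.632) and 0.023 (SE 0.130, edgeR adjusted p = 0.980).

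Among 20 other ephrin and Eph genes, 1 rose and 0 fell. Epha2, an Eph receptor that binds A-type ephrins, rose from 5.43, 5.63 and 7.28 CPM in WT to 12.7, 12.2 and 15.1 CPM in KO. The lowest KO brain was well above the highest WT brain. The means were 6.11 ± 1.02 and 13.3 ± 1.55 CPM (SD, n = 3), and the log2 fold change was 1.12 (SE 0.146, edgeR adjusted p = 0.0123). The call was lost without KO replicate 1 (edgeR adjusted p = 0.0559), KO replicate 3 (0.111) or WT replicate 2 (0.101) and with a term for embryo sex, which rests on WT replicate 2 (0.0981), and without WT replicates 2 and 3 (0.0556), with log2 fold changes of 1.02 to 1.27 over all fits that leave out 1 library. Without KO replicate 1 and WT replicate 1, Ephb1 was also called higher. Of 7 other ephrin ligands 0 passed, with Efna4 at -0.26 (SE 0.123, edgeR adjusted p = 0.642) and Efnb1 at 0.13 (SE 0.0644, edgeR adjusted p = 0.652) closest. Of 13 other Eph receptors, 10 had a positive log2 fold change (47.4% of all genes tested), 4 had each KO brain above each WT brain (7.84% of all genes tested), and the median was 0.09.

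Endothelial genes were read beside the members, since most members are expressed by vessels. Of 10 tested arterial genes 0 passed, with 3 at an unadjusted p under 0.05 (8.09% of all genes tested) and a median of -0.07. DESeq2 called 1, Gja4, lower in KO (adjusted p = 0.0264), limma-voom called 0, and edgeR without KO replicate 1 and WT replicate 1 called 2, both lower. Gja4, an arterial gap junction gene, differed by -0.65 on the log2 scale (SE 0.175, edgeR adjusted p = 0.282), and Acvrl1, a BMP receptor of arterial endothelium, had 0.39 (SE 0.115, edgeR adjusted p = 0.349). Gja5, named outside the rule as the third with an unadjusted p under 0.05, had -0.88 (SE 0.304, edgeR adjusted p = 0.478). Efnb2 at 0.17, Hey1 at 0.20, Hey2 at 0.017 and Dll4 at 0.53 also belong to the arterial programme and also did not pass. Of 8 venous genes 2 rose, Flt4 at 1.00 (SE 0.141) and Vwf at 1.10 (SE 0.150), and 1 fell, Slc38a5 at -2.48 (SE 0.175). The 2 that rose were lost without KO replicate 1, KO replicate 3, WT replicate 2 or WT replicate 3. With all libraries, DESeq2 called 2 venous genes higher and 2 lower, and limma-voom called 2 higher and 1 lower. Ephb4, the venous member, was at 0.032.

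Of 12 tip cell genes 6 rose, 0 fell and the median log2 fold change was 1.18. They were the peptide ligands Apln at 2.22 (SE 0.117) and Adm at 2.46 (SE 0.295), the Tie2 ligand Angpt2 at 2.38 (SE 0.191), the proteoglycan Esm1 at 2.37 (SE 0.169), the potassium channel subunit Kcne3 at 3.60 (SE 0.369) and the urokinase receptor Plaur at 1.76 (SE 0.216). Dll4, which also marks tip cells, had 0.53. In the pan-endothelial list 7 of 21 members of the list rose and 2 fell. Pecam1, an adhesion molecule of endothelium, had 1.00 (SE 0.0829), and Cd34, a surface sialomucin, had 1.14 (SE 0.0695). The others that rose were Mmrn2 at 1.55, the VEGF receptor Flt1 at 1.22, the TGF-beta co-receptor Eng at 0.80, Emcn at 0.79 and Robo4 at 0.71. The 2 that fell were Cldn5, the tight junction claudin of brain endothelium, at -0.50 (SE 0.0585, edgeR adjusted p = 0.0084), and the transcription factor Sox18 at -0.78 (SE 0.107, edgeR adjusted p = 0.016). No pan-endothelial gene was called lower without KO replicate 1, KO replicate 3 or WT replicate 2, or with a term for embryo sex. The tip cell count was 4 to 6 and the pan-endothelial count of calls 4 to 11 when single libraries were left out, with 4 pan-endothelial calls without KO replicate 1, KO replicate 3 or WT replicate 2, 5 without WT replicate 3 and 11 without WT replicate 1. Without WT replicates 2 and 3 they were 2 and 3. Summed, the pan-endothelial genes were at 658 to 742 CPM in KO and 466 to 566 CPM in WT, and the 12 mural cell genes at 265 to 316 CPM in KO and 350 to 371 CPM in WT, with 1 of 12 mural genes called lower. That gene was Rgs5, a pericyte marker, at 39.3 ± 3.80 CPM in KO and 95.5 ± 10.6 CPM in WT (SD, n = 3), against mean sums of 299 and 361 CPM, so most of the difference in the sum was Rgs5. Of 12 hypoxia and glycolysis genes 8 rose (Pdk1, Pgk1, Ak4, Ldha, Bnip3, P4ha1, Egln3 and Vegfa), and the summed level of the list was 1484 to 2013 CPM in KO and 742 to 815 CPM in WT. The 10 members summed to 490 to 527 CPM in KO and 435 to 509 CPM in WT, which overlapped. Of 12 radial glia genes 0 passed in edgeR and limma-voom and 0 in DESeq2, with 1 at an unadjusted p under 0.05 (8.09% of all genes tested). That gene was Sox9, which had 0.26 (SE 0.066, edgeR adjusted p = 0.243), and Sox2 had 0.11 (SE 0.0589, edgeR adjusted p = 0.684). Whether members differ from these lists was not tested.

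**Figure D4:**
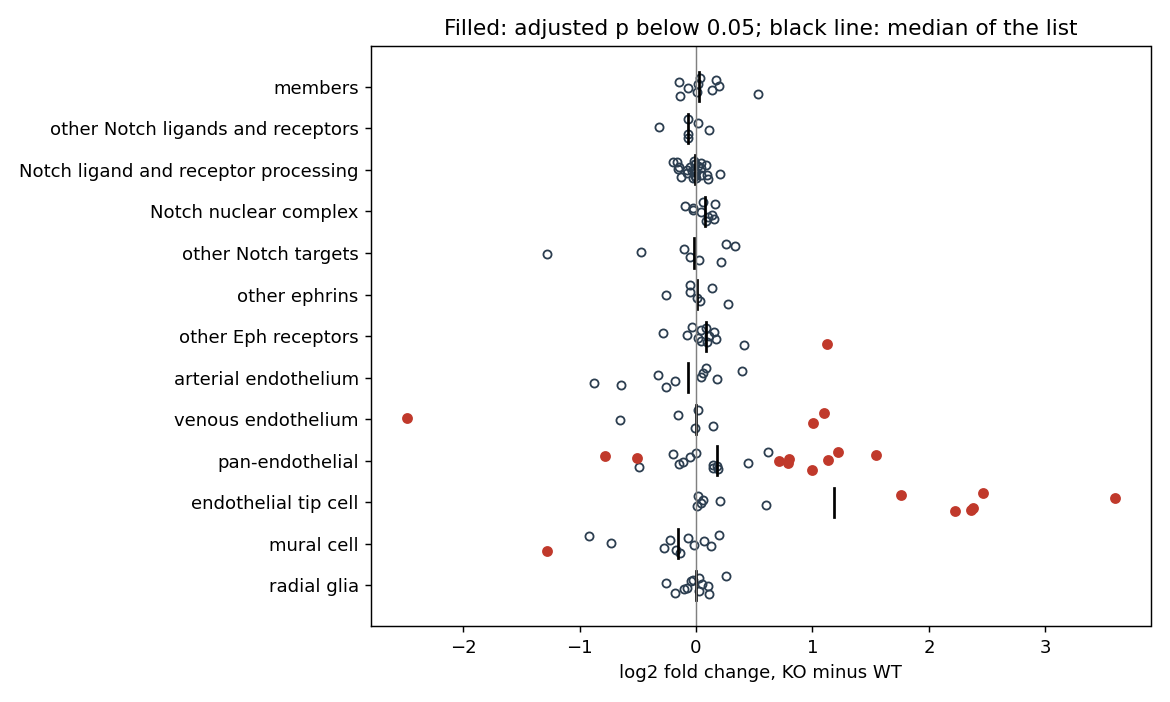
Log2 fold change, KO minus WT, of each tested gene in 13 lists, with filled red points for genes past an adjusted p of 0.05, open points for the others and a black line at the median of each list. The members and the Notch lists lie close to 0 (medians from -0.07 to 0.07), 1 other Eph receptor is filled, and the tip cell list has a median of 1.18.

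Members were also expressed relative to endothelial reference genes. These do not measure endothelial content, since 7 of the 21 pan-endothelial genes rose and 2 fell. The mean log2 CPM of the pan-endothelial list was 0.32 higher in KO, and relative to it Jag1, Notch4, Hey2, Heyl and Ephb4 were below WT in each KO brain, 5 of 10 members against 52.9% of all genes tested. With the median of that list as reference, Dll1 and Notch1 were below as well, 7 of 10 members against 54.6% of all genes. Relative to Cdh5, which itself had a log2 fold change of 0.19 and did not pass, Notch4, Hey2 and Heyl were below WT, 3 of 10 members against 22.9% of all genes. Relative to Pecam1, which rose, all 10 members were below WT, against 91.1% of all genes, and relative to Kdr, a VEGF receptor, 2 of 10 were, against 10.01% of all genes. The counts depend on the reference gene. Dll4 relative to Cdh5 was 0.33 higher in KO on the log2 scale, with overlap between KO replicate 2 at -2.91 and WT replicates 1 and 3 at -2.91 and -2.85.

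Genes whose pattern was most like that of Dll4 were sought among 13763 genes with a mean of at least 1 CPM. Symbols of several clone and predicted-gene forms had been removed, a filter that did not cover the form of CT030170.6. By Pearson's r of log2 CPM over the 6 libraries, the 3 closest were CT030170.6 (r = 0.994), Il10ra, an interleukin-10 receptor gene (r = 0.993), and Rnf165, a RING finger gene (r = 0.988). All were higher in each KO brain and none passed (edgeR adjusted p = 0.633, 0.490 and 0.523). The 6 libraries fall into 2 genotypes that every gene shares, and the r values are given as a description only.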

How the data were processed

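TRIzol was used to purify RNA from whole embryonic brain, per the labels' protocols. The deposited values are raw counts for each gene symbol, made by the authors with STAR 2.5.2a and featureCounts per the submitters' processing notes, which also list mm10 and hg19. No source used here gives the strand setting or annotation release. The authors' deposited table, per the file headers, holds a mean normalized signal, a log2 fold change with its error, a Wald score and p-values. DESeq2 1.12.4 is named in the notes.

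Members, lists and alternatives were chosen with earlier results of these data known. Genes were filtered by filterByExpr, scaled by TMM and tested with robust edgeR 4.0.16 quasi-likelihood in R 4.3.3 (limma 3.58.1 and DESeq2 1.42.0 as alternatives). Log2 CPM used a prior count of 2. Errors are the fold change divided by the square root of F. The naming rule was all members, each list's called genes or, if none, its 2 lowest p-values, and the 3 genes most like Dll4. It was not applied to the neuron, microglia, epidermal and caudal Hox lists, none of which had a call. Alternatives were other scalings, no filter, DESeq2, limma-voom, the replicate number or embryo sex as a term, and libraries left out. Locations and exon lengths are from GENCODE M21 on GRCm38, which the counting may not have used.

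The test was tried on simulated KO and WT counts (3 against 3, 19312 genes, 50 changed per fold size). It recovered 60% of the 1.5-fold changes, 86% of the 2-fold, 100% of the 4-fold and 86% of the 0.5-fold changes, and 6.21% of the calls were false. The simulated spread followed the trend over genes of similar level, without spread particular to a gene or tissue differences between libraries. Recovery in these brains may therefore be lower. Counting error is small for the members, which had at least 290 counts in each library, against a common biological coefficient of variation of 15.3%. No 2 libraries agreed within sampling noise.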

Additional observations from a re-analysis of the deposited data

How the results depend on the processing

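Over 15 alternatives for each of the 10 members, 137 of 150 values kept their sign and their side of the threshold, 12 changed sign and 1 passed. The members called lower stayed at 0 in each. Genes called over the whole table, 129 with all libraries, were 211 with no filter on low counts, 313 in the DESeq2 Wald test, 37 with the sex term, 20 without WT replicates 2 and 3 (1 WT library, assumed to vary like the KO libraries), 459 without KO replicate 1 and WT replicate 1, and 36 to 388 without single libraries.

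Replicate numbers were not shown to pair the brains. Deviations correlated at 0.698, 0.325 and 0.0661 for numbers 1, 2 and 3, and KO replicate 2 correlated more with WT replicate 3 (0.619). With the replicate block 282 genes passed, and 1 member was called higher, Dll4 (log2 value 0.52, edgeR adjusted p = 0.0495). It also called 2 arterial genes lower, and Gja4 was 1 of them (edgeR adjusted p = 0.0417).

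The other Notch genes called were 0 to 1 and the other ephrin and Eph genes called 0 to 1 without single libraries. The latter were 0 with the sex term, 0 without WT replicates 2 and 3, and 2 without KO replicate 1 and WT replicate 1. Signs changed for values near 0. Without WT replicates 2 and 3 the log2 values were 0.37 for Dll1, 0.17 for Notch4, 0.0195 for Heyl and -0.011 for Dlk1. Without KO replicate 1 and WT replicate 1 they were -0.072 for Jag1 and -0.042 for Hey2. With 1 library left out, the log2 values were -0.34 to 0.035 for Dll1, -0.11 to 0.097 for Jag1, -0.0088 to 0.24 for Notch1, -0.069 to 0.077 for Hey2, -0.00071 to 0.060 for Ephb4 and -0.075 to 0.14 for Hes5. The causes were not tested. No member had a larger fitted fold than the 1.44 of Dll4. In the simulation of 3 against 3 libraries, 60% of 1.5-fold changes were recovered. The simulation left out spread particular to a gene and tissue differences between libraries, so it does not give the recovery for these members.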
